A study of Mus musculus with 24 samples.

Results

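Matrix metalloproteinases and their tissue inhibitors (TIMPs) were followed across all 4 kinds of sample of a mouse study in which let-7 microRNA genes were deleted in the surfactant-making cells of the lung. The members were 7 proteinase genes (Mmp2, Mmp3, Mmp8, Mmp9, Mmp12, Mmp14 and Mmp19) and 3 inhibitor genes (Timp1, Timp2 and Timp3), taken by gene name, 10 of the 24970 gene symbols listed. All 10 were listed in each of the 4 tables. They were chosen with results from these data known, so their counts describe the members and are not a test of the family.

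Matrix metalloproteinases are zinc-dependent enzymes that are made as inactive proenzymes and cut collagens, elastin, laminins and many cell-surface and secreted proteins. TIMPs block them by binding the active site, so the proteinase activity of a tissue depends on both families and on activation of the proenzymes, which RNA levels do not measure. Mmp2 and Mmp9 encode gelatinases, Mmp8 a collagenase stored in neutrophils, Mmp3 stromelysin-1, which also activates other proenzymes, and Mmp12 the elastase of macrophages. Mmp14 encodes a membrane-anchored collagenase that activates pro-MMP2 together with TIMP2, and Mmp19 encodes a secreted enzyme that cuts basement membrane proteins. Timp1 is an inducible, soluble inhibitor, and Timp3 is bound to the extracellular matrix.

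Knockout mice (let7afd-/-; Sftpc-CreER/+; R26-tdT/+) were compared with control mice (Sftpc-CreER/+; R26-tdT/+), so that both carried the tamoxifen-inducible Cre driven by the surfactant protein C gene and the tdTomato reporter, and both received tamoxifen. The Sftpc driver directs recombination to alveolar type 2 (AT2) cells, the epithelial cells that make surfactant, and the other cells of a knockout lung are not its target. Flow-sorted AT2 cells were collected after 6 days of tamoxifen, with 3 knockout and 3 control libraries that each pooled 3 mice. Whole lungs were collected from 3 knockout and 3 control mice after 6 days of tamoxifen and from 4 knockout and 4 control mice after 6 months of booster tamoxifen. AT2 cells of 2 knockout and 2 control mice, also after 6 days of tamoxifen, were grown as organoids for 14 days in AMM medium. Neither the age nor the sex of the mice is stated in the labels.

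The deleted let-7 microRNAs lie in a cluster on chromosome 13, and their mature sequences are shown because a seed-matched target among the members would carry the complement of their seed. The sequences were read from RefSeq (GRCm38.p6, minus strand, 5′ to 3′), and capitals mark the seed, bases 2 to 8, which is the same GAGGUAG in all 3. They lie at chr13:48538239-48538260 for let-7a, chr13:48537889-48537910 for let-7f and chr13:48536078-48536099 for let-7d.
let-7a: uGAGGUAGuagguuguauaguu
let-7f: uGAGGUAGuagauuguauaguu
let-7d: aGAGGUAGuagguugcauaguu
The longest annotated 3′ UTR of each member was searched for the letters that pair with this seed. The 8mer CTACCTCA was found in none of the 10, against 3.07% of 20592 genes. A 7mer (CTACCTC or TACCTCA) was found in Mmp14 alone, against 15.1% of those genes. The Mmp14 match is printed with its 7mer in capitals and lies at chr14:54444627-54444656 on the plus strand of GRCm38.
Mmp14 site: ccattaaacagacttcccagCTACCTCtgt
The match stands in the longest Mmp14 transcript of GENCODE M21, and RefSeq ends the gene before it, at position 54442456, so a gene model ending there holds no match. A match or its absence is a description of letters and says nothing of binding. The 3 let-7 genes themselves were listed at 0 TPM in all 24 libraries of both genotypes, so these poly(A) values do not check the deletion.

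Values were in TPM, the usual length-corrected share of a library's transcripts, which scale each library to the same sum and each gene by its length, so levels of different genes may be set side by side but the number of reads behind a value is unknown. Between 11814 and 14175 genes reached 1 TPM in a library. Fold changes are differences of mean log2(TPM + 1), knockout minus control, with the standard error (SE) of limma, and they understate the change of genes with low TPM. A gene passed at a Benjamini-Hochberg adjusted p under 0.05 over all genes tested in its table. At 6 days 2 lung libraries stood apart from their groups. Knockout 3 had 8.48% of its TPM in 5 erythrocyte markers, against 1.28% and 4.54% in knockouts 1 and 2 and 0.879% to 3.23% in controls, and its 13 fibroblast markers summed to 1755 TPM, against 2583 and 3577 TPM in the other knockouts. Control 2 had the highest Mmp12, Mmp19 and Timp1 of the 3 controls.

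The members fell into 2 kinds by where they were detected. Mmp2, Mmp3, Mmp8, Mmp9 and Mmp12 were lung genes that AT2 cells and organoids hardly held, with at most 2.06 TPM in any of those 10 libraries, against 1.65 TPM or more in every lung library. Mmp14, Timp2 and Timp3 were present in every library, with Mmp14 at 27.6 to 39.8 TPM, Timp2 at 25.8 to 56.7 TPM and Timp3 at 70.8 to 120.5 TPM in sorted AT2 cells. Mmp19 and Timp1 lay between these kinds, at 1.35 to 4.27 TPM and 1.61 to 5.06 TPM in sorted AT2 cells. In every lung library Timp2 and Timp3 were above Timp1 except in knockout 3 at 6 days, where Timp1 had 209 TPM, Timp2 145 TPM and Timp3 196 TPM.

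**Figure D1:**
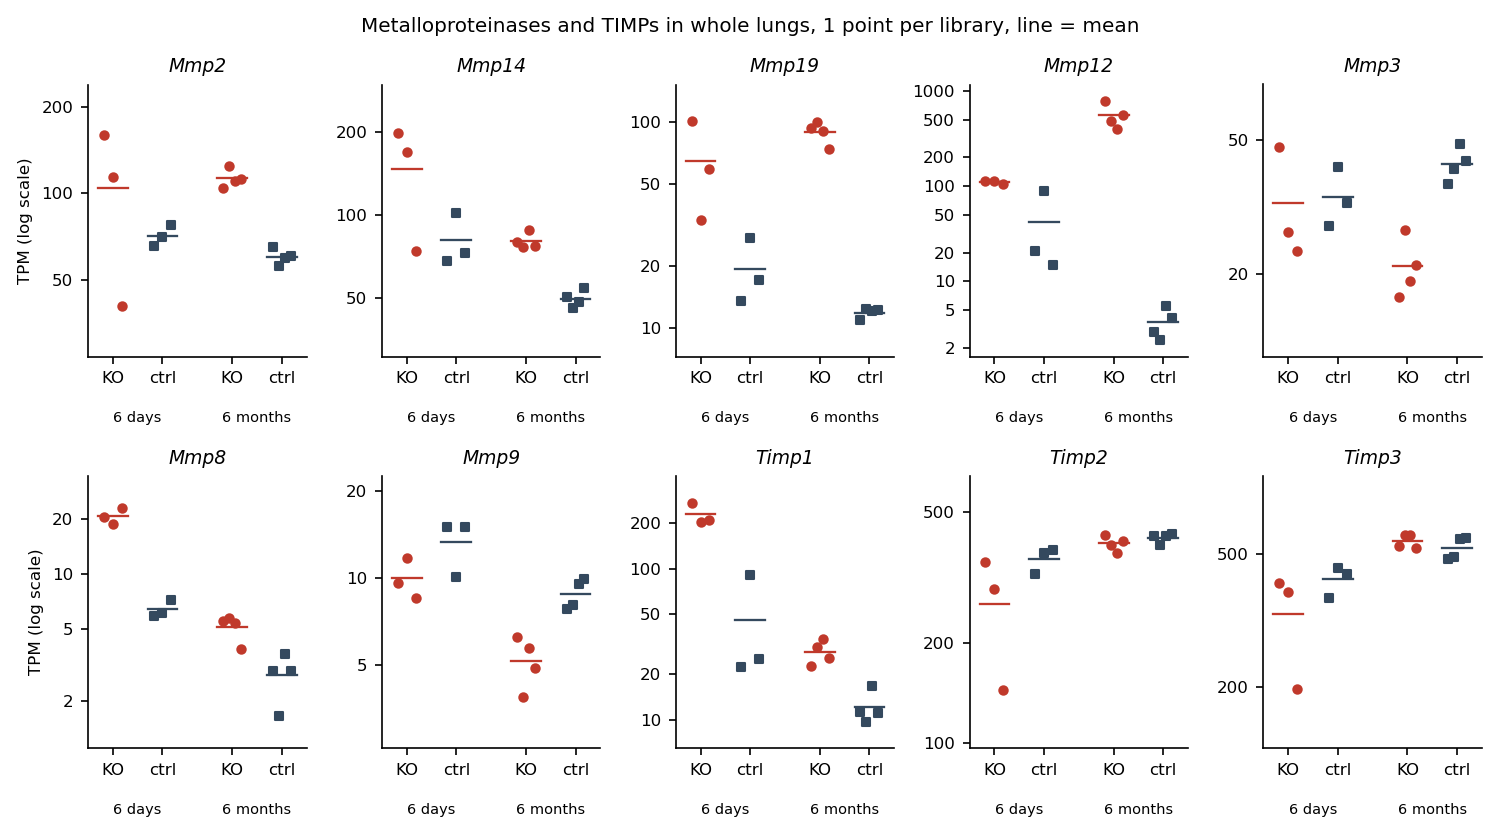
TPM of the 10 members in whole lungs (log axis), with knockout (KO, circles) left of control (ctrl, squares) at 6 days and at 6 months, 1 point per library and a line at the mean. Mmp12 sits between 399 and 779 TPM in the 4 knockout lungs at 6 months, above every other lung library, and Timp1 between 202 and 272 TPM in the 3 knockout lungs at 6 days.

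In lungs after 6 months of booster tamoxifen, the comparison asked how the whole organ differed after long loss of let-7 in AT2 cells. Of the 10 members, 6 rose, 2 fell and 2 did not pass. The proteinases Mmp12, Mmp19, Mmp2, Mmp14 and Mmp8 and the inhibitor Timp1 rose, the proteinases Mmp3 and Mmp9 fell, and Timp2 and Timp3 were near equal in both genotypes. Of 14177 genes tested, 29.8% passed, 15.9% (2260) higher and 13.9% (1966) lower in knockouts; with quantile normalization 2085 were higher and 2808 lower. The knockout and control libraries did not overlap for 8 of the 10 members, the same 8 that passed, against 30.6% of all genes tested. Passing and non-overlap rest on the same values, so the second adds no support to the first. The median log2 fold change was 0.70 over the 10 members and -0.005 over all genes.

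Mmp12, which encodes macrophage elastase, had the largest difference of the members. It was listed at 779, 485, 399 and 559 TPM in knockout lungs, against 2.89, 2.41, 5.49 and 4.05 TPM in control lungs. The lowest knockout value was far above the highest control value, and the mean was 149.8-fold higher in knockouts. The log2 fold change was 6.89 ± 0.22 (SE), with an adjusted p of 3.27e-09. The gene spans chr9:7344381-7369499 on the plus strand (GRCm38, GENCODE M21), and its exons overlap an exon of Mmp1b on the other strand. The libraries do not keep the strand, but Mmp1b was listed at 0 in all 24 libraries.

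Mmp19 followed with 93.4, 99.9, 90.5 and 74.0 TPM in knockout lungs, against 10.9, 12.4, 12.2 and 12.2 TPM in control lungs. The controls lay close together and far below every knockout, and the log2 fold change was 2.80 ± 0.09 (SE; adjusted p 3.9e-09). Its exons, at chr10:128790910-128800824 on the plus strand, overlap those of Tmem198b and Gm47093 on the other strand, whose reads could not be told apart here.

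The gelatinase Mmp2 had 105, 124, 111 and 112 TPM in knockout lungs, against 65.1, 55.6, 59.4 and 60.4 TPM in control lungs, a log2 fold change of 0.90 ± 0.07 (SE; adjusted p 2.6e-06). Mmp14, which encodes the activator of pro-MMP2, had 79.7, 76.5, 88.4 and 77.4 TPM in knockout lungs, against 50.3, 46.1, 48.5 and 54.3 TPM in control lungs (0.68 ± 0.07, SE; adjusted p 2.27e-05). Both genes are made by fibroblasts among other cells, and all 4 knockouts were above all 4 controls for each. Of the 13 fibroblast markers 2 rose, 7 fell and 4 did not pass. Their sum was 3360 to 3720 TPM in knockouts and 4794 to 5166 TPM in controls, with no marker at 0. The part of fibroblasts in the values of Mmp2 and Mmp14 was not tested.

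Mmp8, the neutrophil collagenase gene, was low at this time, with 5.50, 5.76, 5.37 and 3.86 TPM in knockout lungs, against 2.93, 1.65, 3.61 and 2.93 TPM in control lungs. The groups did not overlap but the nearest values were 3.86 and 3.61 TPM, and the log2 fold change was 0.71 ± 0.18 (SE; adjusted p 0.0107). Of 9 neutrophil markers tested, 1 rose and none fell, and the sum of the 10 listed was 360 to 597 TPM in knockouts and 345 to 599 TPM in controls.

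Mmp3, the stromelysin-1 gene, was listed at 17.0, 26.9, 19.1 and 21.2 TPM in knockout lungs, against 36.9, 41.1, 48.6 and 43.1 TPM in control lungs. Every knockout was below every control, with a log2 fold change of -0.99 ± 0.13 (SE; adjusted p 0.000159). The other gelatinase gene, Mmp9, had 6.24, 3.86, 5.69 and 4.85 TPM in knockout lungs, against 7.81, 8.03, 9.54 and 9.86 TPM in control lungs (-0.68 ± 0.14, SE; adjusted p 0.00307). The direction of Mmp9 was thus opposite to that of Mmp2, and that of Mmp3 opposite to that of Mmp12 and Mmp8, which lie near it on chromosome 9. Markers of several other lung cells were lower too in these knockouts. Of the 5 mesothelium markers all fell (127 to 153 TPM in knockouts, 204 to 255 TPM in controls), as did all 5 of ciliated cells (719 to 804 TPM in knockouts, 1053 to 1200.0 TPM in controls). Of 9 endothelium markers 8 fell (2150 to 2372 TPM in knockouts, 3398 to 3570 TPM in controls), and of 9 markers of myofibroblasts, smooth muscle and pericytes 6 fell (675 to 767 TPM in knockouts, 986 to 1252 TPM in controls). Of 5 club cell markers 3 fell and none rose (97513 to 112035 TPM in knockouts, 173904 to 217333 TPM in controls), and of 8 lymphocyte markers 3 fell and 1 rose, with overlapping sums (154 to 242 TPM in knockouts, 230 to 313 TPM in controls). Other lists went the other way or were mixed. Of 10 AT2 markers 6 rose and none fell. Of 10 interstitial macrophage and monocyte markers 4 rose and none fell, and of 5 markers of all leukocytes 3 rose and none fell. Of 8 AT1 markers 2 rose and 3 fell. No marker of these lists was at 0 in all libraries, and their part in the values of Mmp3 and Mmp9 was not tested.

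Mmp3, Mmp8 and Mmp12 belong to a cluster of metalloproteinase genes on that chromosome, in the order Mmp13, Mmp12, Mmp1b, Mmp3, Mmp1a, Mmp10, Mmp8, Mmp27, Mmp20 and Mmp7 between positions 7272514 and 7699585. A pair of stretches just upstream of RefSeq start sites in the cluster are printed, from the plus strand of GRCm38.p6. Each holds an AP-1 motif at a like distance from the start, and the part of the motif in the values of Mmp12 and Mmp3 was not tested. Capitals mark the match to TGANTCA, which was searched on both strands of 300-base promoter windows. The Mmp12 stretch lies at chr9:7347294-7347373, before the second of 2 RefSeq starts, and the Mmp3 stretch at chr9:7445740-7445819.
Mmp12: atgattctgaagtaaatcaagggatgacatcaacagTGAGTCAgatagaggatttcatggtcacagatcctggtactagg
Mmp3: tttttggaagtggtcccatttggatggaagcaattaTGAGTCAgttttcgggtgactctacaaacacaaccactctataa
The match starts 44 bases before the start site in Mmp12 and 46 bases before it in Mmp3. It was found in 7.81% of 32851 promoters. RefSeq windows were at hand for 7 of the 10 members, with 8 promoters, and the first Mmp12 promoter and those of Mmp8, Mmp14, Timp1, Timp2 and Timp3 held no match.

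Of the inhibitors at 6 months Timp1 rose, and Timp2 and Timp3 did not pass. Timp1 had 22.6, 30.1, 34.3 and 25.8 TPM in knockout lungs, against 11.3, 9.75, 16.8 and 11.1 TPM in control lungs, with no overlap (1.15 ± 0.16, SE; adjusted p 0.000291). Timp2 had 426, 396, 376 and 408 TPM in knockout lungs, against 423, 396, 422 and 427 TPM in control lungs. Timp3 had 527, 570.1, 568 and 519 TPM in knockout lungs, against 482, 489.9, 553 and 556 TPM in control lungs. For these abundant inhibitors the groups overlapped, and the 95% intervals of the log2 fold changes were -0.17 to 0.06 for Timp2 and -0.06 to 0.21 for Timp3. With quantile normalization Timp2 fell (-0.19, adjusted p 0.00645), and the sign for Timp3 turned to -0.08.

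The summed RNA of the 7 proteinases was 719 to 1085 TPM per library in knockout lungs at 6 months and 167 to 187 TPM in control lungs, while that of the 3 inhibitors was 953 to 997 TPM and 896 to 994 TPM. The proteinase sum per inhibitor sum was therefore 0.735 to 1.11 in knockouts and 0.187 to 0.193 in controls. Mmp12 made up 55.5% to 71.8% of the proteinase sum in knockouts and 1.44% to 2.93% in controls, where Mmp2 had the largest share, at 31.7% to 36.8%. These ratios compare RNA levels and are descriptions without a test.

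**Figure D2:**
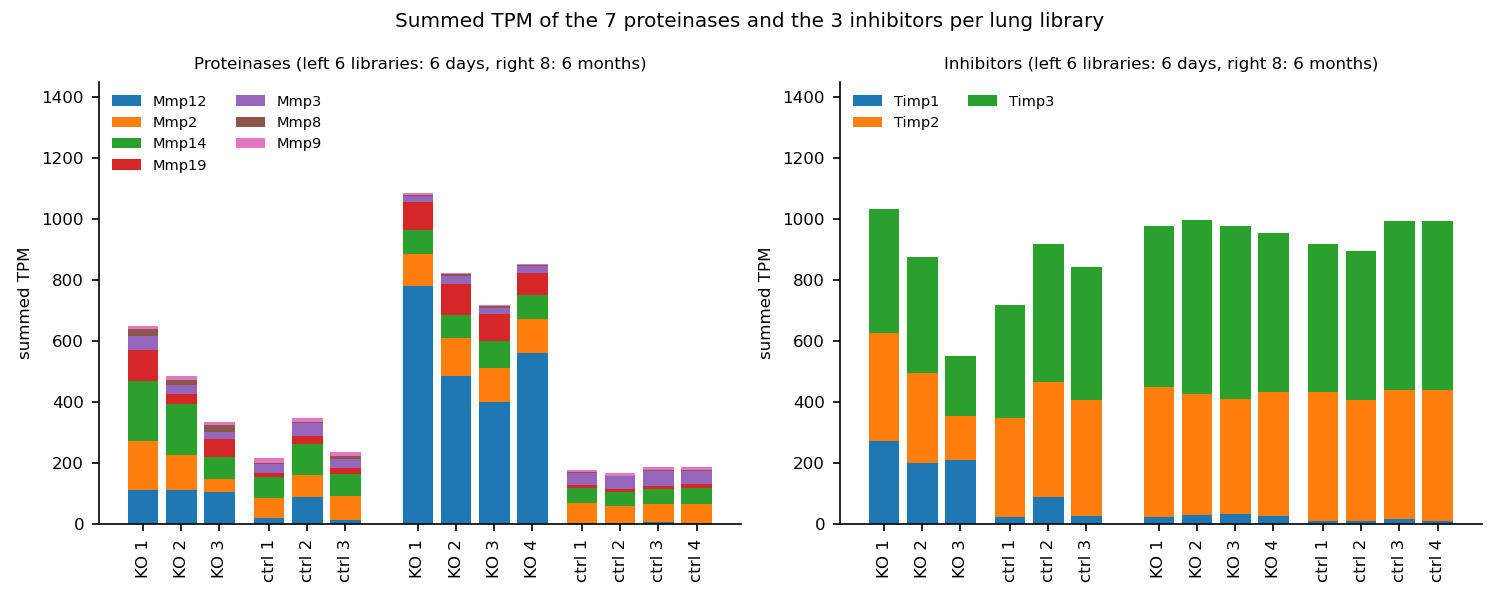
Summed TPM per lung library, stacked by gene, for the 7 proteinases (left) and the 3 inhibitors (right), with knockout (KO) left of control (ctrl) within 6 days (first 6 bars) and 6 months (last 8 bars). The proteinase bars of the 4 knockouts at 6 months reach 719 to 1085 TPM, mostly Mmp12, while the inhibitor bars are 896 to 997 TPM in all 8 lungs.

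In whole lungs a higher level can come from more cells of a type or from more RNA per cell, and these cannot be told apart. Macrophage markers moved with Mmp12 at 6 months: all 10 markers of macrophages of all kinds rose, and their sum was 19213 to 22186 TPM in knockouts and 7936 to 8748 TPM in controls. That sum is mostly Lyz2, which AT2 cells express too. All 8 markers of lipid-associated macrophages rose (7743 to 11228 TPM in knockouts, 2017 to 2207 TPM in controls), as did 9 of 13 alveolar macrophage markers, while 2 fell (5803 to 9368 TPM in knockouts, 926 to 1244 TPM in controls). No marker of these lists was at 0. Per 1000 TPM of the macrophage list, Mmp12 had 19.5 to 35.1 TPM in knockouts and 0.303 to 0.673 TPM in controls, and per 1000 TPM of the alveolar macrophage list 45.0 to 134 TPM in knockouts and 2.44 to 4.41 TPM in controls. The ratios to these sums are descriptions, and the part of macrophage number in the Mmp12 values was not tested.

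**Figure D3:**
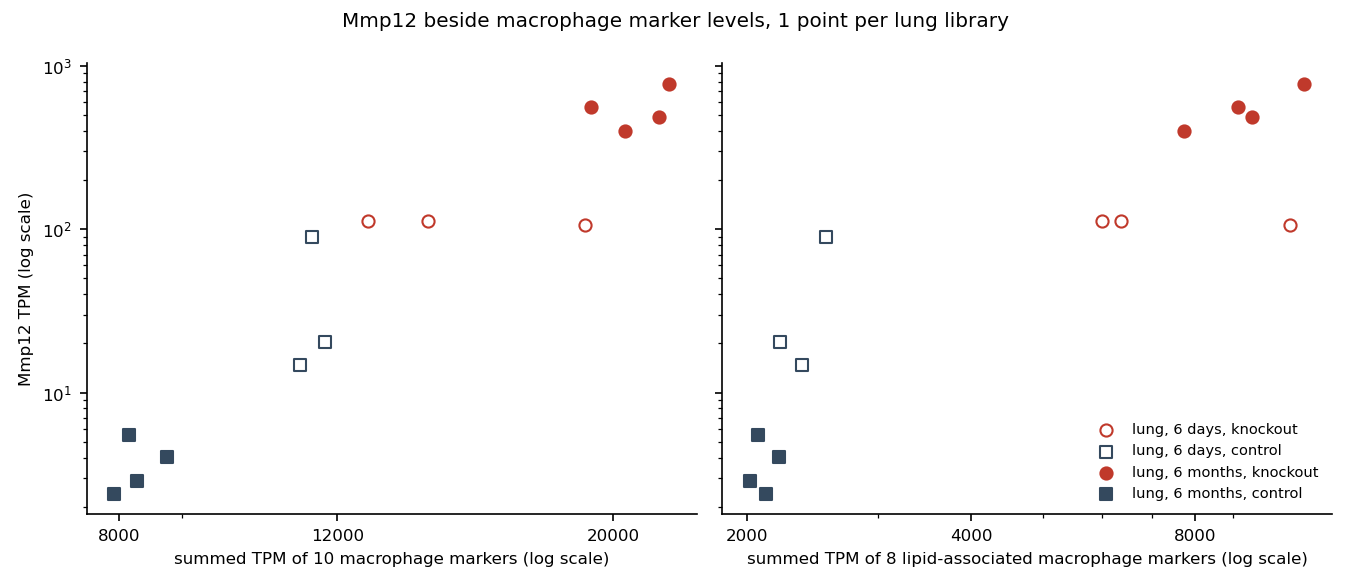
Mmp12 TPM (log axis) against the summed TPM of 10 macrophage markers (left) and 8 lipid-associated macrophage markers (right, both log axes), 1 point per lung library, with knockouts as circles, controls as squares, 6 days open and 6 months filled. The 3 knockout lungs at 6 days have 106 to 113 TPM of Mmp12. Their lipid-associated marker sums are 6008 to 10736 TPM, and those of the 6-month knockouts 7743 to 11228 TPM.

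In lungs after 6 days of tamoxifen, Timp1 and Mmp8 rose and the other 8 members did not pass. Of 14154 genes tested, 6.95% passed, 3.16% higher and 3.79% lower in knockouts. The median log2 fold change over all genes was -0.14, a shift that median-ratio scaling of the libraries takes away, so the values with that scaling are given too. Over the 10 members the median was 0.55.

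Timp1 had 272, 202 and 209 TPM in knockout lungs, against 22.5, 90.03 and 25.3 TPM in control lungs. All knockouts were above all controls, of which control 2 was the highest. The log2 fold change was 2.56 ± 0.46 (SE; adjusted p 0.0187) and 2.72 with median-ratio scaling. The call was lost without knockout 2 (adjusted p 0.0612), control 1 (0.0933) or control 3 (0.0839), and without control 2 the value was 3.19 (adjusted p 0.00251). Timp1 lies within an intron of Syn1 on the X chromosome (chrX:20870166-20874735) with no shared exon.

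Mmp8 had 20.5, 18.8 and 23.1 TPM in knockout lungs, against 5.84, 6.12 and 7.17 TPM in control lungs, tight groups that were far apart. The log2 fold change was 1.56 ± 0.17 (SE; adjusted p 0.00462), and 1.70 with median-ratio scaling. It passed in all 14 alternative fits run. Of 9 neutrophil markers tested none passed in either direction by limma. An unadjusted p under 0.05 was held by 1 of them and by 3563 of all 14154 genes tested. The sum of the 10 listed was 688, 801 and 1652 TPM in knockouts and 1435, 789.5 and 1011 TPM in controls. Per 1000 TPM of these 10 markers, Mmp8 had 14.0 to 29.8 TPM in knockouts and 4.07 to 7.75 TPM in controls. The part of neutrophils in the values of Mmp8 was not tested.

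Mmp12 had 112, 113 and 106 TPM in knockout lungs, against 20.5, 89.1 and 14.8 TPM in control lungs. No control reached the knockouts, but control 2 came near, and the log2 fold change of 1.83 ± 0.56 (SE) did not pass (adjusted p 0.0884). Without control 2 it was 2.59 (adjusted p 0.00348), without control 1 1.56 (adjusted p 0.294) and without control 3 1.34 (adjusted p 0.29). Mmp12 passed in 3 of 14 alternative fits. Mmp19 had 101, 33.3 and 58.7 TPM in knockout lungs, against 13.5, 27.2 and 17.1 TPM in control lungs, and just missed the threshold (1.60 ± 0.40, SE; adjusted p 0.0507). With median-ratio scaling it passed at 1.76 (adjusted p 0.0302). The libraries of these 2 genes, of Timp1 and of Mmp8 did not overlap between genotypes, against 36.2% of all genes tested.

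Mmp2 and Mmp14 did not pass, and their values depended on single knockouts. Mmp2 had 159, 114 and 40.4 TPM in knockout lungs, against 65.4, 70.5 and 77.4 TPM in control lungs (0.35 ± 0.43, SE; adjusted p 0.633). Mmp14 had 198, 168 and 74.0 TPM in knockout lungs, against 68.2, 102 and 73.0 TPM in control lungs (0.75 ± 0.35, SE; adjusted p 0.222). In both genes 2 knockouts were above all controls and knockout 3 was not. Without it, both passed, at 0.92 (adjusted p 0.0136) for Mmp2 and 1.18 (adjusted p 0.0106) for Mmp14, and 4 members in all rose. Without knockout 1 the sign of Mmp2 turned to -0.061 (adjusted p 0.915) and Mmp14 was at 0.48 (adjusted p 0.324), and without knockout 2 Mmp2 was at 0.18 (adjusted p 0.847) and Mmp14 at 0.60 (adjusted p 0.407). Knockout 3 was the lowest of the 6 for Timp2, with 353, 292 and 145 TPM in knockouts and 324, 374 and 382 TPM in controls (-0.54 ± 0.30, SE; adjusted p 0.289). Timp3 had 408, 383 and 196 TPM in knockouts and 370, 453 and 436 TPM in controls (-0.42 ± 0.27, SE; adjusted p 0.357).

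Mmp3 had 47.5, 26.6 and 23.5 TPM in knockout lungs at 6 days, against 27.7, 41.4 and 32.4 TPM in control lungs, and Mmp9 had 9.61, 11.7 and 8.53 TPM in knockouts, against 14.9, 10.02 and 15.0 TPM in controls. The groups overlapped for both genes and neither passed. The sign of Mmp3 turned with median-ratio scaling (0.048, against -0.10). With that scaling the other members that did not pass were at 1.98 for Mmp12 (adjusted p 0.0578), 0.91 for Mmp14 (adjusted p 0.053), 0.50 for Mmp2, -0.23 for Mmp9, -0.38 for Timp2 and -0.26 for Timp3. The proteinase sum per inhibitor sum was 0.553 to 0.627 in knockouts and 0.281 to 0.377 in controls, and Timp1 made up 23.0% to 38.0% of the inhibitor sum in knockouts and 3.00% to 9.81% in controls.

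Macrophage markers were also higher at 6 days, where 6 of 10 markers of macrophages of all kinds rose and none fell (12710.0 to 18992.5 TPM in knockouts, 11187 to 11730.5 TPM in controls). Of 8 lipid-associated macrophage markers, 6 rose and none fell (6008 to 10736 TPM in knockouts, 2218 to 2554 TPM in controls). Of 13 alveolar macrophage markers, 5 rose and 2 fell (4620 to 14787 TPM in knockouts, 1895 to 2126 TPM in controls), and of 13 fibroblast markers none rose and 5 fell (1755 to 3577 TPM in knockouts, 3861 to 4494 TPM in controls). No marker of these lists was at 0, and their part in the members' values was not tested.

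The knockout effects in the lungs were then compared between 6 months and 6 days as a difference of log2 fold changes. Of 13875 genes tested, 1.9% passed, 238 with a higher and 26 with a lower effect at 6 months (282 and 115 with median-ratio scaling), and 1 of the 10 members did. The effect on Mmp12 was larger at 6 months by 5.06 ± 0.62 (SE; adjusted p 0.000625). Both parts moved, since the mean in knockouts was 556 ± 162 TPM (SD, n = 4) at 6 months and 110 ± 3.68 TPM (SD, n = 3) at 6 days, and the mean in controls was 3.71 ± 1.37 TPM and 41.5 ± 41.3 TPM. The tables were made separately and the mice of different times had a different tamoxifen course, so levels set across them are a description. The difference remained at 4.29 or more in all 19 alternative fits, including those without control 2 at 6 days. For Timp1 the effect at 6 months minus that at 6 days was -1.41 ± 0.48 (SE; adjusted p 0.172), and for Mmp19 it was 1.20 ± 0.36 (SE; adjusted p 0.112), neither passing. Left-out lungs of the 6-day groups changed 3 of these calls: Timp1 passed without control 2 (-2.04, adjusted p 0.0385), Mmp19 without knockout 1 (1.59, adjusted p 0.0148) and Mmp3 without knockout 3 (-1.08, adjusted p 0.0427).

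**Figure D4:**
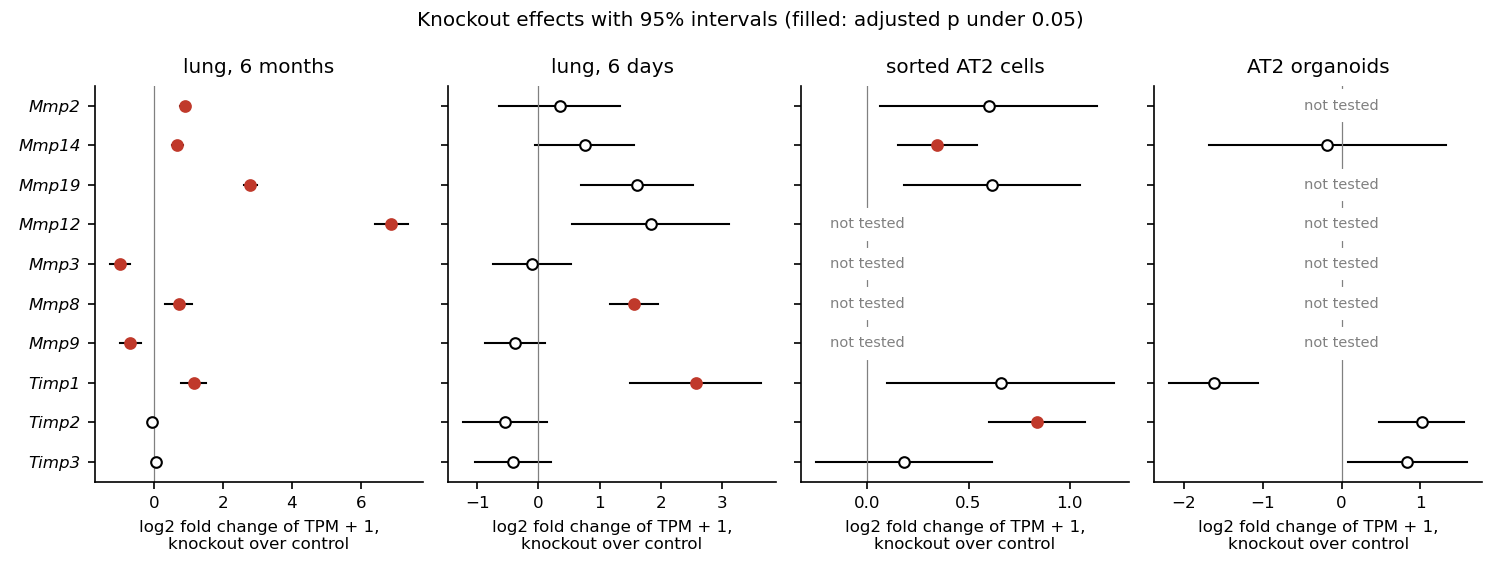
Log2 fold change of TPM + 1, knockout over control, with its 95% interval for each member (rows) in lungs at 6 months, lungs at 6 days, sorted AT2 cells and AT2 organoids; filled points have an adjusted p under 0.05, and the horizontal scales differ between panels. At 6 months 8 members are filled, from -0.99 for Mmp3 to 6.89 for Mmp12, while 2 are filled at 6 days, 2 in AT2 cells and none in organoids.

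In sorted AT2 cells, the cells in which the let-7 genes were deleted, Timp2 and Mmp14 rose. The other 4 members tested did not pass, and Mmp3, Mmp8, Mmp9 and Mmp12 were below the 1 TPM filter. Of 12109 genes tested, 7.85% passed, 6.62% (802) higher and 1.22% (148) lower in knockouts; with median-ratio scaling 420 were higher and 204 lower. The median log2 fold change was 0.61 over the 6 members tested and 0.08 over all genes.

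Timp2, whose product both inhibits metalloproteinases and takes part in the activation of pro-MMP2, had 56.7, 44.2 and 48.3 TPM in knockout AT2 cells, against 27.7, 28.4 and 25.8 TPM in control AT2 cells. Every knockout was above every control, with a log2 fold change of 0.84 ± 0.10 (SE; adjusted p 0.00594), and it passed in all 14 alternative fits. The Timp2 promoter in RefSeq held 1 match to the antioxidant response element core TGACNNNGC, starting 152 bases before the start site on the strand opposite to the gene's. That core, searched on both strands, was found in 12.4% of 32851 promoters, and in no other promoter of a member.

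Mmp14 had 35.4, 37.1 and 39.8 TPM in knockout AT2 cells, against 27.6, 28.7 and 31.4 TPM in control AT2 cells. The groups did not overlap, and the log2 fold change was small, at 0.35 ± 0.09 (SE; adjusted p 0.0474). The call was lost when any 1 of the 6 libraries was left out (adjusted p 0.0648 to 0.152) and with median-ratio scaling (0.26, adjusted p 0.112). Non-overlap as such was common, at 33.7% of all genes tested. Mmp14 is the member whose longest 3′ UTR holds the let-7 7mer printed above.

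Mmp19 had 3.03, 2.79 and 4.27 TPM in knockout AT2 cells, against 2.34, 1.35 and 1.84 TPM in control AT2 cells (0.62 ± 0.19, SE; adjusted p 0.0843). Timp1 had 2.03, 5.06 and 3.46 TPM in knockouts, against 2.06, 1.61 and 1.61 TPM in controls (0.66 ± 0.24, SE; adjusted p 0.131). Timp1 overlapped through knockout 1, and without that library it passed (0.92, adjusted p 0.0446). Timp3, the most abundant member in these cells, had 120.5, 79.2 and 97.7 TPM in knockouts and 70.8, 109.6 and 82.0 TPM in controls, with overlap and no pass (0.18 ± 0.19, SE; adjusted p 0.571).

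Mmp2 was near the filter in AT2 cells, at 1.38, 1.38 and 1.54 TPM in knockouts and 1.25, 0.239 and 0.483 TPM in controls (0.60 ± 0.23, SE; adjusted p 0.146). Mmp12 was listed at 0.623, 1.40 and 1.75 TPM in knockouts and 0.263, 0.187 and 0.838 TPM in controls, too low to be tested. The sorted cells were rich in AT2 markers, whose 10 genes summed to 127974 to 186033 TPM in knockouts and 198337 to 212926 TPM in controls, with none passing by limma and 0 at an unadjusted p under 0.05. The 5 markers of all leukocytes summed to 37.2 to 68.3 TPM in knockouts and 7.25 to 26.4 TPM in controls, 2 of them rising. Of 3 erythrocyte markers tested 2 rose, and the sum of the 5 listed was 285 to 481 TPM in knockouts and 81.3 to 160.0 TPM in controls, with no overlap. Of 11 alveolar macrophage markers tested 4 rose and none fell (1314 to 1389 TPM in knockouts, 1263 to 1682 TPM in controls). Of 9 macrophage markers tested, 4 rose and none fell, with a sum that is mostly Lyz2 (30946 to 47230 TPM in knockouts, 45840 to 50749 TPM in controls). None of 8 fibroblast markers tested passed by limma, with 3 at an unadjusted p under 0.05, against 3296 of all 12109 genes tested. Of these 8, 7 had a log2 fold change above 0, with a median of 0.47. The sum of the 13 listed went the other way, at 347 to 655 TPM in knockouts and 638 to 807 TPM in controls. The part of other cells in the low members was not tested.

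**Figure D5:**
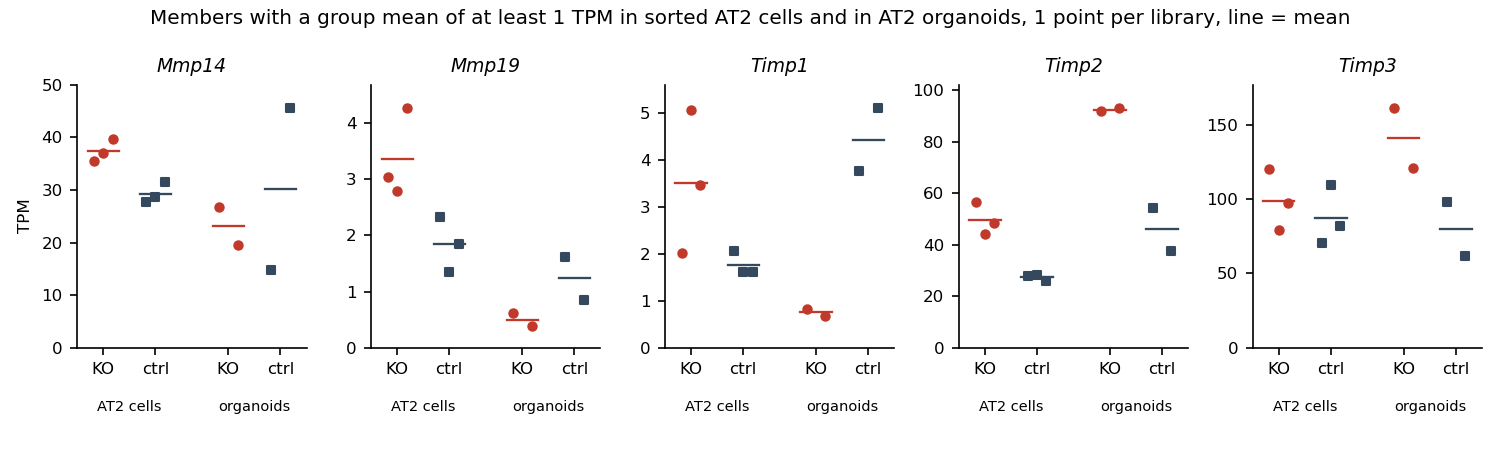
TPM of the 5 members with a group mean of at least 1 TPM both in sorted AT2 cells and in AT2 organoids (Mmp14, Mmp19, Timp1, Timp2 and Timp3), on axes from 0, with knockout (KO, circles) left of control (ctrl, squares), 1 point per library and a line at the mean. Timp2 is higher in every knockout library of both kinds of sample, and Timp1 is below 1 TPM in the 2 knockout organoids and at 3.77 and 5.10 TPM in the 2 control organoids.

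The AT2 effects were set against those of the lung at the same time. Of 11766 genes tested, 0.204% differed between AT2 cells and lungs at 6 days, 12 in each direction (26 higher and 56 lower with median-ratio scaling). None of the 6 members tested differed by limma. An unadjusted p under 0.05 was held by 3 of them, a count not made over all genes. Timp2 came nearest, with an effect in AT2 cells minus that in lungs of 1.38 ± 0.31 (SE; adjusted p 0.0779). It passed in 4 of 17 alternative fits. These were median-ratio scaling (1.14, adjusted p 0.0383), quantile normalization (1.39, adjusted p 0.0336) and the fits without lung knockout 1 (1.64, adjusted p 0.038) or lung knockout 3 (0.998, adjusted p 0.0256). The adjusted p for Timp2 was 0.335 without lung control 1 and 0.36 without lung control 3. Timp1, with a difference of -1.91 ± 0.54 (SE; adjusted p 0.15), passed in 1 of 17 alternative fits, without lung control 2 (-2.53, adjusted p 0.0471). Its adjusted p was 0.518 without lung control 1 and 0.553 without lung control 3.

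In AT2 organoids, with 2 libraries per genotype, none of the 4 members tested passed by limma. An unadjusted p under 0.05 was held by 3 of them and by 4527 of all 12406 genes tested. Of 12406 genes tested 0.605% passed, 0.218% (27) higher and 0.387% (48) lower in knockouts, or 32 and 37 with quantile normalization, and the libraries did not overlap for 71.7%. Timp1 had 0.83 and 0.68 TPM in knockout organoids, against 3.77 and 5.10 TPM in control organoids (-1.62 ± 0.21, SE; adjusted p 0.06). Timp2 had 92.2 and 93.0 TPM in knockouts, against 54.4 and 37.7 TPM in controls (1.02 ± 0.20, SE; adjusted p 0.0701). Timp1 was thus low and Timp2 high in both knockout organoids, without a call for either. With control 1 left out, all 4 passed, and with control 2 left out Timp1 and Timp2 did (adjusted p 0.0108 and 0.0121), as did Mmp19, which the filter then kept (-0.81, adjusted p 0.0454), but each such fit holds a lone control that is taken to vary like the knockouts.

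Timp3 had 161 and 121 TPM in knockout organoids, against 98.3 and 61.6 TPM in control organoids (0.84 ± 0.28, SE; adjusted p 0.118). Mmp14 had 26.9 and 19.5 TPM in knockouts, against 14.7 and 45.5 TPM in controls, with the controls on both sides of the knockouts (-0.18 ± 0.56, SE; adjusted p 0.832). Mmp2, Mmp3, Mmp8, Mmp9, Mmp12 and Mmp19 were below the filter, with Mmp19 at 0.615 and 0.379 TPM in knockouts and 1.62 and 0.850 TPM in controls, and Mmp8 listed at 0 in 3 of the 4 libraries. The 5 leukocyte markers summed to 1.79 to 2.92 TPM in knockouts and 1.00 to 1.39 TPM in controls, none of them tested. The 10 AT2 markers summed to 89999 and 82131 TPM in knockouts and 71714 and 27215 TPM in controls, lowest in control 2. The 8 AT1 markers summed higher in knockouts, at 2406 to 3005 TPM, against 1766 to 1790 TPM in controls, none passing. The 5 ciliated cell markers summed to 15.0 to 21.3 TPM in knockouts and 68.2 to 127 TPM in controls, none passing. The 5 club cell markers summed to 8240 to 9137 TPM in knockouts and 18511 to 19984 TPM in controls, 1 of them falling. Of 2 neutrophil markers tested 1 fell. The part of other cells in the members' values was not tested.

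Organoids and sorted AT2 cells differed for Timp1. Of 11351 genes tested, 11.1% had a different knockout effect, 509 higher and 750 lower in organoids (740 and 653 with median-ratio scaling). The effect on Timp1 in organoids minus that in AT2 cells was -2.28 ± 0.41 (SE; adjusted p 0.0118). The call was lost when either knockout organoid was left out (adjusted p 0.196 without knockout 1 and 0.229 without knockout 2). For Timp2 the same difference was 0.18 ± 0.22 (SE; adjusted p 0.62), with a 95% interval of -0.31 to 0.67. The Timp2 difference was 0.44 without organoid control 1 and -0.079 without organoid control 2.

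Across all 8 groups the order of the levels differed by member. Mean Mmp12 was highest in 6-month knockout lungs (556 TPM), then 6-day knockout lungs (110 TPM), 6-day control lungs (41.5 TPM) and 6-month control lungs (3.71 TPM), and no neighbours among these overlapped. Mean Timp1 was highest in 6-day knockout lungs (228 TPM), then 6-day control lungs (45.9 TPM), 6-month knockout lungs (28.2 TPM) and 6-month control lungs (12.2 TPM), of which 6-day controls and 6-month knockouts overlapped. Mean Mmp8 was 20.8 TPM in 6-day knockouts, 6.38 TPM in 6-day controls, 5.12 TPM in 6-month knockouts and 2.78 TPM in 6-month controls, none overlapping.

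The pattern of each member that passed in lungs was set against 11074 genes of at least 5 TPM on average, over the 14 lung libraries, with the log2 values of each table centred. Libraries of a genotype and time share that group, so these are descriptions. The genes most like Mmp12 were Cd300lb (Pearson r 0.992), Gpnmb (0.991) and Slc15a3 (0.99), and those most like Mmp19 were Fcgr2b (0.985), Cd44 (0.98) and Ugt1a7c (0.979). For Timp1 they were Hmox1 (0.971), Atp5g2 (0.965) and Marco (0.963). For Mmp2 they were Mgat4b (0.972), Scamp2 (0.962) and Vac14 (0.961), and for Mmp14 Rab5c (0.983), Sorcs2 (0.977) and Prelid1 (0.97). Among the genes most like Mmp9 were Gm1966 (0.916) and Lrrc23 (0.896). Mmp8 was most like Nhp2 (0.968), Coq7 (0.955) and Glrx (0.954), and Mmp3 most like Csrp1 (0.933), Gfpt2 (0.916) and Tmco1 (0.912). Gpnmb encodes a glycoprotein of lipid-laden macrophages, Hmox1 heme oxygenase-1 and Marco a scavenger receptor of alveolar macrophages.

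The rest of the metalloproteinase family was a list of 17 genes. For this list and those below, the shares of all genes tested that passed were 29.8% in lungs at 6 months and 6.95% at 6 days. They were 7.85% in AT2 cells and 0.605% in organoids. Single genes of these lists were not checked under the alternative settings. Of the 17 genes, 2 of 8 tested rose and 2 fell in lungs at 6 months. Mmp15, a membrane-anchored relative of Mmp14, fell to 60.2 ± 5.82 TPM in knockouts, against 93.3 ± 4.46 TPM in controls (SD, n = 4 each; adjusted p 7.22e-05). Mmp28, which encodes epilysin, fell to 13.7 ± 1.88 TPM in knockouts, against 24.1 ± 3.08 TPM in controls (adjusted p 0.000455). Mmp11 rose by 0.30 on the log2 scale (adjusted p 0.00607), and the collagenase gene Mmp13 rose at a low level with overlapping libraries, to 2.52 ± 0.90 TPM in knockouts, against 1.09 ± 0.26 TPM in controls (adjusted p 0.0196). Mmp28 also fell in AT2 cells, to 1.96 ± 0.32 TPM in knockouts, against 4.13 ± 0.065 TPM in controls (SD, n = 3 each; adjusted p 0.0154), the 1 gene of 4 tested that passed there. At 6 days none of 8 passed in lungs by limma, with 3 at an unadjusted p under 0.05, against 3563 of all 14154 genes tested. In organoids 1 of 5 rose, Mmp23, to 8.72 ± 1.39 TPM in knockouts, against 0.566 ± 0.031 TPM in controls (SD, n = 2 each; adjusted p 0.0317).

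Regulators of the plasminogen and metalloproteinase system and some of their partners were a list of 22 genes. In lungs at 6 months 8 of 19 tested rose and 3 fell, at 6 days 3 of 19 rose, and in AT2 cells 3 of 17 rose. In organoids none of 15 passed by limma, with 9 at an unadjusted p under 0.05, against 4527 of all 12406 genes tested. Lcn2, whose product binds MMP9 in humans, rose in lungs at 6 months to 2493 ± 315 TPM in knockouts, against 233 ± 45.3 TPM in controls (SD, n = 4 each; adjusted p 1.14e-08). It rose at 6 days too, to 1491 ± 148 TPM in knockouts, against 405 ± 185 TPM in controls (SD, n = 3 each; adjusted p 0.00897). In AT2 cells it reached 5484 ± 1143 TPM in knockouts, against 2094 ± 586 TPM in controls (SD, n = 3 each; adjusted p 0.0174). Lcn2 thus passed in both lung comparisons and in AT2 cells.

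The hyaluronan receptor gene Cd44 had 137 ± 16.1 TPM in knockout lungs at 6 months, against 62.2 ± 3.92 TPM in control lungs (SD, n = 4 each; adjusted p 2.67e-06). Plaur, which encodes the urokinase receptor, rose there to 108 ± 9.45 TPM in knockouts, against 54.9 ± 5.09 TPM in controls (adjusted p 6.08e-06), and Plat, the tissue plasminogen activator gene, fell to 30.1 ± 3.09 TPM in knockouts, against 55.6 ± 5.15 TPM in controls (adjusted p 2.46e-05). In AT2 cells Plaur rose to 15.4 ± 5.10 TPM in knockouts, against 4.97 ± 0.557 TPM in controls (SD, n = 3 each; adjusted p 0.0151), together with the urokinase gene Plau (2.33 ± 0.397 TPM in knockouts, 0.621 ± 0.265 TPM in controls; adjusted p 0.0203). In lungs at 6 days Tfpi2, a Kunitz-type inhibitor gene, rose to 12.5 ± 3.67 TPM in knockouts, against 3.45 ± 1.54 TPM in controls (SD, n = 3 each; adjusted p 0.0199).

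Of the 21 ADAM, ADAMTS and astacin proteinases, 6 of 18 tested rose and 5 fell in lungs at 6 months. Adam8, a leukocyte sheddase gene, rose to 32.0 ± 2.58 TPM in knockouts, against 8.84 ± 1.71 TPM in controls (SD, n = 4 each; adjusted p 1.26e-06). The aggrecanase gene Adamts5 fell to 3.58 ± 0.641 TPM in knockouts, against 6.74 ± 0.525 TPM in controls (adjusted p 0.0007), and Adamts9 fell as well (-1.11 ± 0.20, SE; adjusted p 0.00131), while the sheddase gene Adam10 rose by 0.30 on the log2 scale (adjusted p 0.00131). At 6 days 1 of 21 rose, Adam8, to 40.05 ± 4.54 TPM in knockouts, against 17.9 ± 3.31 TPM in controls (SD, n = 3 each; adjusted p 0.0133), and 1 fell, Adam28, to 6.65 ± 0.398 TPM in knockouts, against 16.7 ± 1.87 TPM in controls (adjusted p 0.00844). In AT2 cells 3 of 9 rose and none fell. These were Adamts9 (18.3 ± 1.30 TPM in knockouts, 10.2 ± 1.19 TPM in controls; adjusted p 0.00819), Adam10 (67.4 ± 2.01 TPM in knockouts, 49.6 ± 0.803 TPM in controls; adjusted p 0.014) and Adamts1 (131 ± 17.0 TPM in knockouts, 83.0 ± 8.30 TPM in controls; adjusted p 0.0216; SD, n = 3 each). In organoids none of 12 passed by limma, with 5 at an unadjusted p under 0.05, against 4527 of all 12406 genes tested.

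Matrix proteins that metalloproteinases cut were a list of 18 genes, of which 3 rose and 5 fell in lungs at 6 months. Spp1, the osteopontin gene, rose to 1588 ± 445 TPM in knockouts, against 225 ± 35.7 TPM in controls (SD, n = 4 each; adjusted p 4.23e-07). The fibronectin gene Fn1 rose to 181 ± 11.1 TPM in knockouts, against 121 ± 7.43 TPM in controls (adjusted p 3.51e-05). The fibrillin-1 gene Fbn1 fell to 19.6 ± 0.576 TPM in knockouts, against 27.2 ± 0.450 TPM in controls (adjusted p 0.000201), and so did the collagen gene Col5a1 (13.3 ± 0.643 TPM in knockouts, 18.4 ± 1.95 TPM in controls; adjusted p 0.00254). At 6 days 1 of 18 rose, Spp1, to 3561 ± 2259 TPM in knockouts, against 164 ± 27.9 TPM in controls (SD, n = 3 each; adjusted p 0.00323), and 1 fell, the decorin gene Dcn, to 92.6 ± 28.7 TPM in knockouts, against 255 ± 49.4 TPM in controls (adjusted p 0.0133).

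In AT2 cells 6 of 15 matrix genes rose and none fell, where 6.62% of all genes tested were higher and 1.22% lower in knockouts. With median-ratio scaling 420 genes in all were higher there, against 802 without it. Whether these matrix genes kept their calls was not checked. The elastin gene Eln, whose product is the substrate that names macrophage elastase, had 5.54 ± 2.07 TPM in knockouts, against 1.08 ± 0.555 TPM in controls (SD, n = 3 each; adjusted p 0.0144). Fn1 had 10.1 ± 1.86 TPM in knockouts, against 4.12 ± 2.23 TPM in controls (adjusted p 0.0419), and the laminin gene Lama5 42.3 ± 2.86 TPM in knockouts, against 30.6 ± 2.55 TPM in controls (adjusted p 0.0283). Spp1 rose in these cells as well (1.13 ± 0.28, SE; adjusted p 0.0471). In organoids 1 of 12 rose, again Spp1, to 26.6 ± 3.79 TPM in knockouts, against 4.45 ± 0.605 TPM in controls (SD, n = 2 each; adjusted p 0.0317).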

How the data were processed

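The 24 samples were sequenced as poly(A) libraries made with a TruSeq kit without strand information, per the labels' protocols. The TPM values are the authors' deposited values, 1 table per kind of sample, and the submitters' processing notes name GRCm38; the aligner, the quantifier and the gene models behind them are not stated in the labels or the tables. Depth is therefore unknown.

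The values of a table entered their own limma fit (limma 3.58.1, R 4.3.3) of log2(TPM + 1) on genotype, with a variance trend and no further term. Tests were two-sided, and p-values were adjusted by Benjamini-Hochberg over genes with at least 1 TPM in as many libraries as the smaller group holds (2 rows sharing a symbol with a higher row were left out). A gene passed at an adjusted p under 0.05. Differences between tables were contrasts of the within-table effects with a separate spread for each table. The p-values measure the spread between mice, or pools of 3 mice for AT2 cells. The fits were tested on simulated data.

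The members and lists were chosen with earlier results of these data known. All members are named, with up to 4 passing genes of smallest adjusted p in each further list and comparison, the 3 genes most like each member that passed in a lung comparison, and marker lists as counts and sums (Lyz2 and Mmp1b were named after their values were seen). A few genes that this rule names are not reported here. GENCODE M21 and RefSeq tables gave positions and sequences; 24464 symbols matched GENCODE. Alternatives were a pseudocount of 0.1, no filter or 5 TPM, median-ratio scaling, quantile normalization, no trend, library weights, a replicate block and leaving out each library.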

Additional observations from a re-analysis of the deposited data

Results flagged for a closer look

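The knockout effect on Mmp12 differed between lungs at 6 months and lungs at 6 days by 5.06 on the log2 scale (adjusted p 0.000625 by limma), with an effect of 6.89 at 6 months and 1.83 at 6 days. All 4 knockout lungs at 6 months and all 3 at 6 days were above their controls. The effect on Timp1 differed between organoids and sorted AT2 cells by -2.28 (adjusted p 0.0118 by limma), with an effect of -1.62 in organoids and 0.66 in AT2 cells. Timp1 was lower in 2 of 2 knockout organoids and higher in 2 of 3 knockout AT2 libraries than in every control of its kind.

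Among the 20 groups of 4 libraries examined (10 members in knockout and in control lungs at 6 months), 2 held a library far from the other 3, and chance alone flags about 1 in 20 groups. Control 1 was the lowest of the controls for Mmp19, at 10.9 TPM, beside 12.2 to 12.4 TPM. Control 2 was the lowest of the controls for Timp2, at 396 TPM, beside 422 to 427 TPM. With control 1 left out Mmp19 still passed, and with control 2 left out Timp2 still did not.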

How the results depend on the processing

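In lungs at 6 months 8 members passed under 14 of 16 alternatives, 7 with the 5 TPM filter, which leaves Mmp8 untested, and 9 with quantile normalization, which adds Timp2 (lower). Mmp12 there kept a log2 fold change between 6.71 and 7.21. In AT2 cells, where 2 passed, 1 passed without the filter, with median-ratio scaling, with quantile normalization, without the trend and with the replicate block, and 1 to 2 when each library was left out; Mmp14 lost its call in each of these, and without knockout 1 Timp1 passed beside Timp2. In lungs at 6 days, where 2 passed, 7 did with library weights, a setting that called 8395 genes in all, and 1 to 4 when a library was left out. In organoids, where 0 passed, 1 did without the trend, 2 with library weights and 0 to 4 with a library left out, where 1 control is assumed to vary like the knockouts. For the difference between lung times, where 1 passed, leaving out a library gave 1 to 2. For AT2 cells minus lungs, where 0 passed, scaling by median ratio or by quantiles gave 1 each and leaving out a library 0 to 1. For organoids minus AT2 cells, where 1 passed, leaving out a library gave 0 to 4. Spreads kept apart gene by gene, a setting chosen after seeing the data, gave the same member counts for the 3 differences.

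Signs turned for values that had not passed. With median-ratio scaling and quantile normalization Mmp3 at 6 days was 0.048 and 0.012, and with quantile normalization Timp3 at 6 months was -0.085. With 1 library left out, the log2 fold changes ranged from -0.40 to 0.090 for Mmp3 and -0.061 to 0.92 for Mmp2 at 6 days, and -0.96 to 0.60 for Mmp14 in organoids. The differences ranged from -0.50 to 0.20 for Mmp14 and -0.018 to 0.96 for Mmp2 between lung times, -0.32 to 0.66 for Mmp2 in AT2 cells minus lungs, and, in organoids minus AT2 cells, -1.31 to 0.26 for Mmp14 and -0.079 to 0.44 for Timp2. The cause was not tested.

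Same-numbered libraries shared little beyond the number: the correlation of their deviations was -0.173 to 0.172 in AT2 cells, -0.154 to 0.0053 in 6-day lungs, 0.0803 to 0.217 in 6-month lungs and -0.0738 in organoids. At 6 months every library correlated best with its own number, a hint from the data. With the replicate block 1 member passed in AT2 cells, 3 in lungs at 6 days (Mmp12 in addition, adjusted p 0.0423), 8 at 6 months and 0 in organoids. Counts over all genes moved from 950 in AT2 cells to 370 without the filter, 624 and 617 with the scalings and 187 to 1214 with a library left out. They moved from 983 at 6 days to 1798 and 1888 with the scalings and 92 to 2049 with a library left out. In organoids 75 became 0 without the filter, 183 without the trend, 659 with weights, 399 with the block and 0 to 6967 with a library left out. For the differences they moved from 264 to 610, 397 and 465 and 52 to 902 (lung times), from 24 to 79, 154, 82 and 122 and 5 to 200 (AT2 cells minus lungs), and from 1259 to 18 to 4713 (organoids minus AT2 cells). TPM hold no depth, so counting error at low levels such as those of Mmp12 in AT2 cells is unknown.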
